A study of Drosophila melanogaster with 27 samples.

Results

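The mitochondrial ribosomal protein genes of Drosophila melanogaster were taken as all protein-coding genes of the RefSeq dm6 gene table whose symbol starts with mRpL or mRpS. This gave 73 members of 13922 protein-coding genes of the large chromosome arms and chromosome 4, with 47 mRpL and 26 mRpS symbols. They were read against a list of regions enriched for histone H4 monomethylated at lysine 20 (H4K20me1), obtained by CUT&RUN, in which an antibody tethers a nuclease to chromatin and the released DNA is sequenced. The list set Oregon-R wild-type wing imaginal discs treated with the H4K20me1 antibody (n = 3 libraries) against Oregon-R discs without primary antibody (n = 3). Both groups came from female wandering larvae of instar 3 raised at 25 °C, with 20 discs pooled per library. The series also covers Set8 and histone H4 mutants, in 21 libraries of 8 further groups, and asked how the mark changes in them; these groups were not analysed here.

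Mitochondria carry ribosomes of their own, which translate the few proteins encoded by mitochondrial DNA, all of them parts of the respiratory chain and the ATP synthase. The proteins of these ribosomes are encoded in the nucleus, made in the cytoplasm and imported. Symbols with mRpL denote proteins of the large subunit, which joins amino acids and threads the new chain through an exit tunnel. Symbols with mRpS as a rule denote proteins of the small subunit, which reads the mRNA. H4K20me1 is laid down by Set8 and is known from bodies of transcribed genes as well as from condensed chromatin.

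The list held 6914 peaks covering 17.5 Mb, with widths of 150 to 68600 bp (median 1100 bp) and all boundaries on a 50 bp grid. It gives positions only. No height, score or value per library comes with a peak, depth per library is unknown, and the spread between replicates cannot be computed, so every value below is a description of this list without a test. Signal too weak for the authors' threshold, which is not given in the sources used here, would leave a gene unlisted. As a check of the tissue, peaks lay in 7 of 10 fixed marker genes of the disc epithelium. These were ap, hth, nub, sd, tsh, en and rn, with only 5.95% of en and 0.405% of rn covered, while vg, wg and dpp had none. The epithelial markers are long (median 22318 bp). A peak overlapped 53.9% of all protein-coding genes of 3000 bp or more and 38.3% of all protein-coding genes. Peaks also lay in 1 of 4 neuronal markers (elav), and in 0 of 4 markers each of muscle and of fat body and hemocytes. These lists are long as well, with medians of 20822 bp (neurons), 16778 bp (muscle) and 8706 bp (fat body and hemocytes). A peak over a gene is not a measure of its expression, so these counts do not test tissue purity.

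Mitochondrial ribosomal protein genes with a peak were mostly marked from the side. A peak overlapped the body of 37 of the 73 genes by at least 1 bp (50.7%, against 38.3% of all protein-coding genes). In only 7 of them did the gene body hold the midpoint of a peak (9.59%, against 27.9% of all protein-coding genes). The other 30 were overlapped by a peak centred outside them (41.1%, against 10.5%). In 27 of these 30 the midpoint lay in another protein-coding gene (37.0% of members, against 9.34% of all genes), and in 3 it lay between genes. Centred genes thus made up 18.9% of the members with a peak and 72.7% of all protein-coding genes with a peak. These shares are not matched for length. Among genes under 1500 bp with a peak, 5 of 32 members and 345 of 983 protein-coding genes were centred.

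Coverage of the bodies varied widely. At least 50% of the body lay under peaks in 19 members (26.0%, against 18.3% of all protein-coding genes), and the whole body in 7 (9.59%, against 4.57%). Among the 37 members with a peak the median covered share was 54.1% (quartiles 20.7 and 86.4%), beside 46.9% among all protein-coding genes with a peak. The order of these medians depends on the genes included. Among genes that overlap no other protein-coding gene, the median was 27.2% for members and 46.7% for all genes, without X it was 35.5% and 48.2%, and without 3R it was 42.4% and 46.2%. In base pairs, peaks covered 22016 of the 88873 bp of member bodies (24.8%, against 19.0% of the bodies of all protein-coding genes). Peaks centred on a member supplied 26.6% of these covered bases and the others 73.4%.

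**Figure D1:**
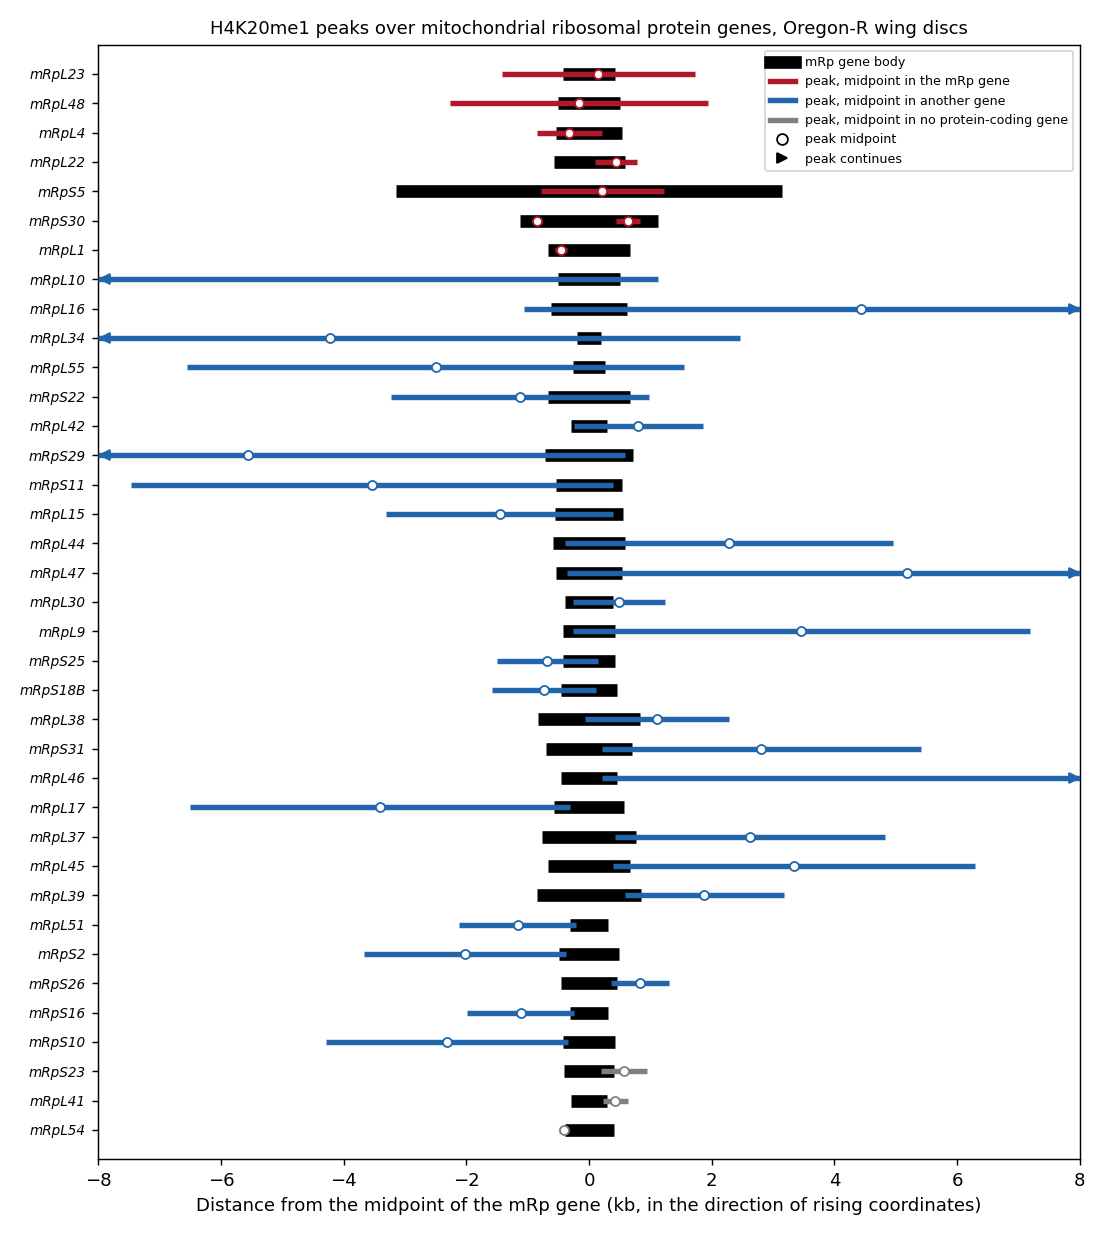
Peaks over the 37 mRp genes that had one, drawn around the midpoint of each gene (x axis, kb; arrows mark peaks that run past the frame). Black bars are gene bodies, coloured lines peaks and open circles peak midpoints; 7 genes hold a midpoint (red), 27 are entered from another gene (blue) and 3 by a peak centred between genes (grey).

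Short length goes with few centred peaks, and length differs between these genes and the rest. The median member spanned 909 bp (range 390 to 13391 bp), against 2163 bp for all protein-coding genes. Of the 47 members of 750 to under 1500 bp, 5 held a midpoint (10.6%, against 9.22% of all genes of that length), so the share of centred peaks in this class lay near the background. The members of this class differed from it in the peaks that reached in, found in 21 genes (44.7%, against 15.3%), and so in peaks of any kind, found in 26 (55.3%, against 24.5%). Among the 19 members under 750 bp none held a midpoint (0 of 19, against 2.89%), and the 6 with a peak (31.6%, against 12.0%) were all entered from outside (31.6%, against 9.14%).

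Longer members were few. Of the 5 members of 1500 to under 3000 bp, 4 had a peak (80%, against 39.1%), centred in 1 (20.0%, against 24.7%) and reaching in in 3 (60%, against 14.4%). Of the 2 members of 3000 bp or more, 1 had a peak (against 53.9% of such genes), which was centred (against 48.8%), and none was only entered from outside (against 5.09%). These 2 classes hold too few members to read a share from.

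**Figure D2:**
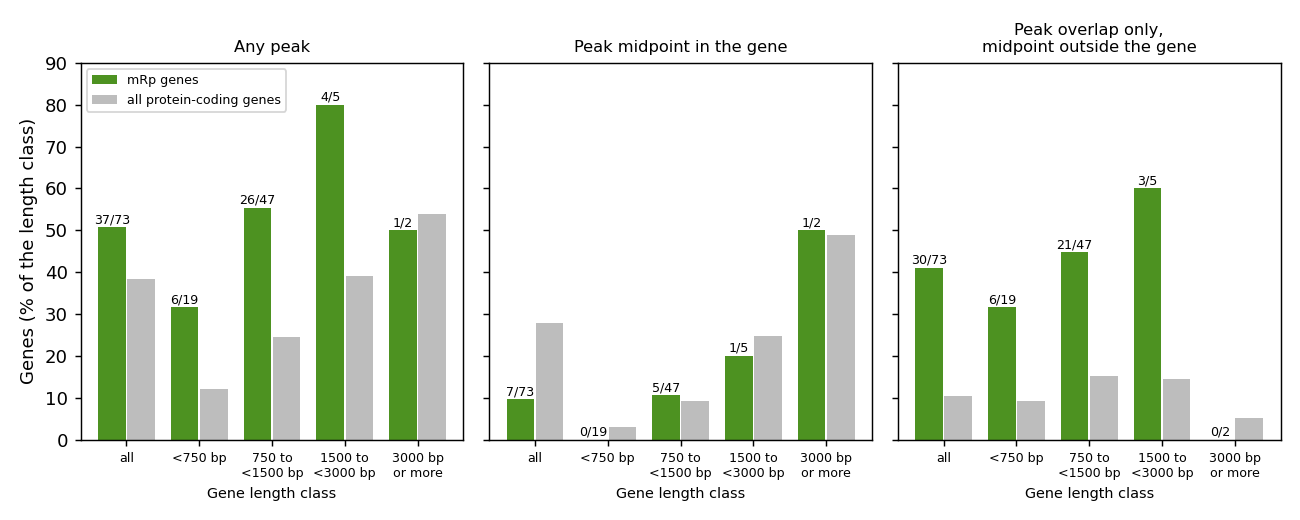
Share of genes (y axis, %) with any peak, with a peak midpoint in the body, and with peak overlap only, for mRp genes (green, with counts) and all protein-coding genes (grey) by gene length. In the class of 750 to under 1500 bp, 5 of 47 mRp genes held a midpoint, near the 9.22% of all genes, while 21 of 47 were entered from outside, against 15.3%.

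The 7 centred members encode proteins of quite different places in the ribosome. mRpL23, mRpL22 and mRpL4 are relatives of bacterial proteins that line the tunnel through which the new chain leaves. mRpL23 (3L, 2372844 to 2373704) lay wholly within a peak of 3150 bp that also covered parts or all of CG8993, CG1317 and CG9004, and CG9004 held more of that peak than mRpL23 did. mRpL4 (2L, 16328059 to 16329132) was covered over 742 bp (69.1%) by a peak of 1050 bp, and mRpL22 (X, 16783933 to 16785092) over 492 bp (42.4%) by a peak of 700 bp. In both, about 70% of the peak lay in the member, at 70.7% for mRpL4 and 70.3% for mRpL22.

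mRpL48 (2L, 1710462 to 1711465), which in mammals belongs to a protuberance of the large subunit found at the subunit interface, lay wholly under a peak of 4200 bp together with parts of CG17660 and frtz. CG17660 held the most of that peak, so the assignment of mRpL48 as centred rests on the midpoint. mRpL1 (3R, 8301440 to 8302770), of the mobile stalk beside the exit site for tRNA, had a peak of 200 bp within its body, covering 15.0% of it.

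Both centred mRpS genes were the longest members with a peak. mRpS5 (3L, 24537236 to 24543534), a protein near the entry channel for mRNA, spans 6299 bp and held a peak of 2000 bp (31.8% of the gene) that touched no other protein-coding gene. mRpS30 (X, 15786047 to 15788288), whose mammalian relative sits in the large subunit in spite of its name, held 2 peaks of 150 and 400 bp, together 24.5% of its 2242 bp. It was the only member with more than 1 peak. Peaks confined to the member among protein-coding genes were found in 5 members, these being mRpL1, mRpS5, mRpS30, mRpL41 and mRpL54. The last pair had peaks that ran past the gene end into sequence between genes. The share of all protein-coding genes with such peaks was not computed, so this count only lists the members.

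The peaks on centred members were narrow compared with those reaching in from genes nearby. The 8 peaks on the 7 centred members had a median width of 875 bp (range 150 to 4200 bp), and a median of 85.3% of the peak lay in the member. The 27 peaks centred in another gene had a median width of 4400 bp (range 950 to 38050 bp), with 9.60% of the peak in the member at the median. A wider peak can overlap more genes by construction, so this contrast describes the classes and does not test them.

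A peak centred in another gene covered 5 members entirely. The widest was the peak of 38050 bp over spen, which encodes a nuclear RNA-binding regulator of transcription. Its midpoint lay 17404 bp from mRpL10 (2L, 203779 to 204782), a protein of the stalk base that receives translation factors, and the peak ran past the whole of that gene. A peak of 13350 bp centred in the dystroglycan gene Dg covered mRpL34 (2R, 16098948 to 16099337), at 390 bp the shortest member. The peak of 11000 bp over arm, the Drosophila beta-catenin gene, covered mRpL16 (X, 1890256 to 1891482) and arm completely.

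The remaining pair of whole bodies lay under mid-sized peaks. mRpL55 (3R, 19094394 to 19094905) was covered by a peak of 8100 bp centred in the kinase gene cdi, of which it took only 12.5%, and which also reached ATPsynD, a subunit gene of the ATP synthase. mRpS22 (3R, 27916908 to 27918248), a small-subunit protein without a bacterial relative, made up 31.9% of a peak of 4200 bp centred 458 bp away in CG5003.

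Another 8 members were covered over 80% or more but less than the full body. mRpL42 (91.4% covered) was entered from Cdc2rk, and mRpS29 (91.2%), a GTP-binding protein also known as a death-associated protein in mammals, from a peak of 12300 bp that spanned 7 protein-coding genes and was centred in the RNA-binding protein gene qkr58E-1. mRpS11 (86.4%), a platform protein of the small subunit, shared a peak of 7850 bp with Ns1 and Dad, the gene of the inhibitory Smad of Dpp signalling. mRpL15 (85.5%) was entered from the presenilin gene Psn, and mRpL44 (84.0%), which has a fold related to RNase III, from Snr1, a core subunit of the SWI/SNF remodelling complex, under a peak that also overlapped the deacetylase gene HDAC3.

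mRpL47 (83.5%) lay at the edge of a peak of 11100 bp centred where Kdm3, a histone demethylase gene, overlaps CG8176. mRpL30 (83.2%) was entered from Torsin, an ATPase of the endoplasmic reticulum and nuclear envelope, by a peak of 1500 bp whose midpoint lay 104 bp outside mRpL30. mRpL9 (80.8%) was entered from Cyfip, a gene of the actin-regulating WAVE complex. In these 8 genes an edge of the peak fell inside the member, so the peak covered most of the body and ended before its far boundary.

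Intermediate coverage was seen in 8 members entered from another gene. mRpS25 (66.7%, from CG14414), mRpS18B (61.8%, from the cytokinesis gene nesd) and mRpL38 (54.1%, from CG42271) were covered over more than 50%. mRpS31 was covered to 35.5% from mib1, a ubiquitin ligase gene of Notch signalling, and mRpL46 to 27.2% from the 19400 bp peak over the alpha-spectrin gene alpha-Spec. mRpL17 was covered to 23.6% from Tudor-SN and mRpL45, whose mammalian relative faces the inner mitochondrial membrane, to 20.7% from loco, a regulator of G protein signalling.

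In the remaining 6 members entered from another gene, less than 20% of the body was covered. mRpL39 was covered over 266 bp (15.8%) from the proteasome gene Prosbeta2, mRpL51 over 98 bp (15.6%) from PIG-U, a gene of GPI anchor attachment, and mRpS2 over 112 bp (11.4%) from CG11927. mRpS26 was covered over 99 bp (10.7%) from Polr3D, a subunit gene of RNA polymerase III, mRpS16 over 65 bp (10.6%) from ReepB and mRpS10 over 86 bp (10.1%) from the arginine methyltransferase gene Art3. All of these overlaps but that of mRpL39 span at most a few steps of the 50 bp grid.

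A further 3 members met a peak centred between protein-coding genes. The peak over mRpS23 was 750 bp wide, covered 222 bp (27.0%) and had its midpoint 154 bp from the gene. Those over mRpL41 and mRpL54 were 400 and 150 bp wide and covered 67 bp (11.3%) and 62 bp (7.76%). In all 3 cases the member was the protein-coding gene nearest to the midpoint and held more of the peak than any other, so they are not peaks of a neighbouring gene in the sense of the 27 above. Overlaps shorter than 100 bp were found in 6 members, mRpL41, mRpL51, mRpL54, mRpS10, mRpS16 and mRpS26. When an overlap of over 100 bp was required, members with a peak fell from 37 to 31. The share of all protein-coding genes fell from 38.3 to 37.0%.

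**Figure D3:**
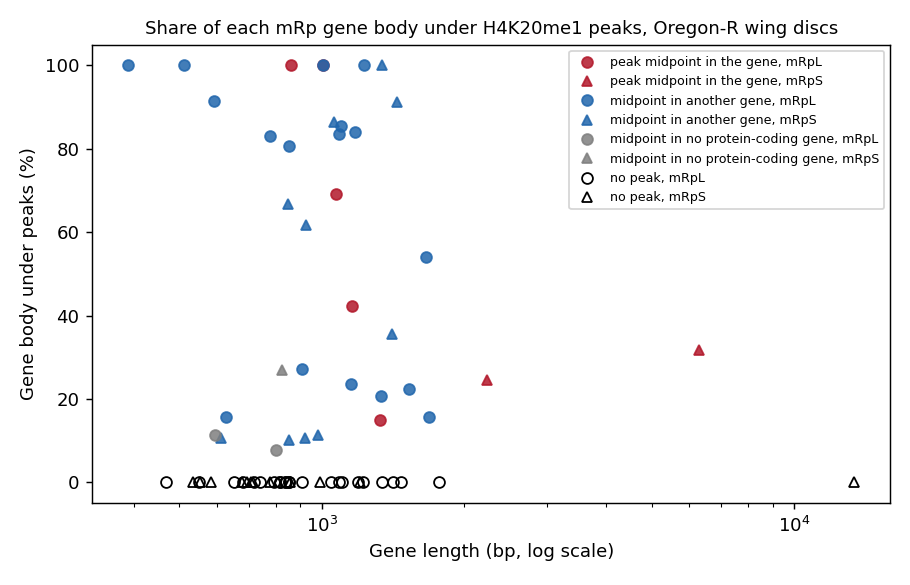
Share of the gene body under peaks (y axis, %) against gene length (x axis, bp, log scale) for all 73 mRp genes, 1 symbol per gene, circles for mRpL and triangles for mRpS. Filled symbols are the 37 genes with a peak, coloured by where the midpoint lay, and open symbols at 0 the 36 without; mRpL10 and mRpL48 have equal length and coverage and coincide.

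The genes from which peaks reached in were longer than the members and were themselves well covered. A gene that holds the midpoint of a wide peak tends to be long and well covered by construction. The contrast therefore describes the pairs and does not test them. All protein-coding genes with a midpoint had a median length of 4606 bp and a median covered share of 45.1% over all their peaks. The 27 members entered from another gene had a median length of 1004 bp, against 2740 bp (range 1369 to 49389 bp) for the gene holding the midpoint, and the member was the shorter of the pair in 26. For mRpL47, whose peak midpoint lay in both Kdm3 and CG8176, only Kdm3 was used as the neighbour. The shared peak covered a median of 66.7% of the member, against 99.7% of the neighbour. It covered at least 50% of the neighbour in 21 cases and all of it in 13. The neighbour was covered to a larger share than the member in 18 pairs, to a smaller share in 8, and both were fully covered in 1, the pair of mRpL16 and arm.

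The 8 pairs in which the member was the more covered were mRpL10 with spen, mRpL34 with Dg, mRpL55 with cdi, mRpS11 with Dad, mRpL38 with CG42271, mRpS22 with CG5003, mRpL30 with Torsin and mRpS18B with nesd. In 9 of the 27 pairs the annotated bodies of the 2 genes overlap, and in 18 they do not. Even so, in all 37 members with a peak some covered bases lay in sequence that belongs to no other protein-coding gene. Strand and exons were not used, so it cannot be said whether a peak entered a member through its promoter or its end.

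**Figure D4:**
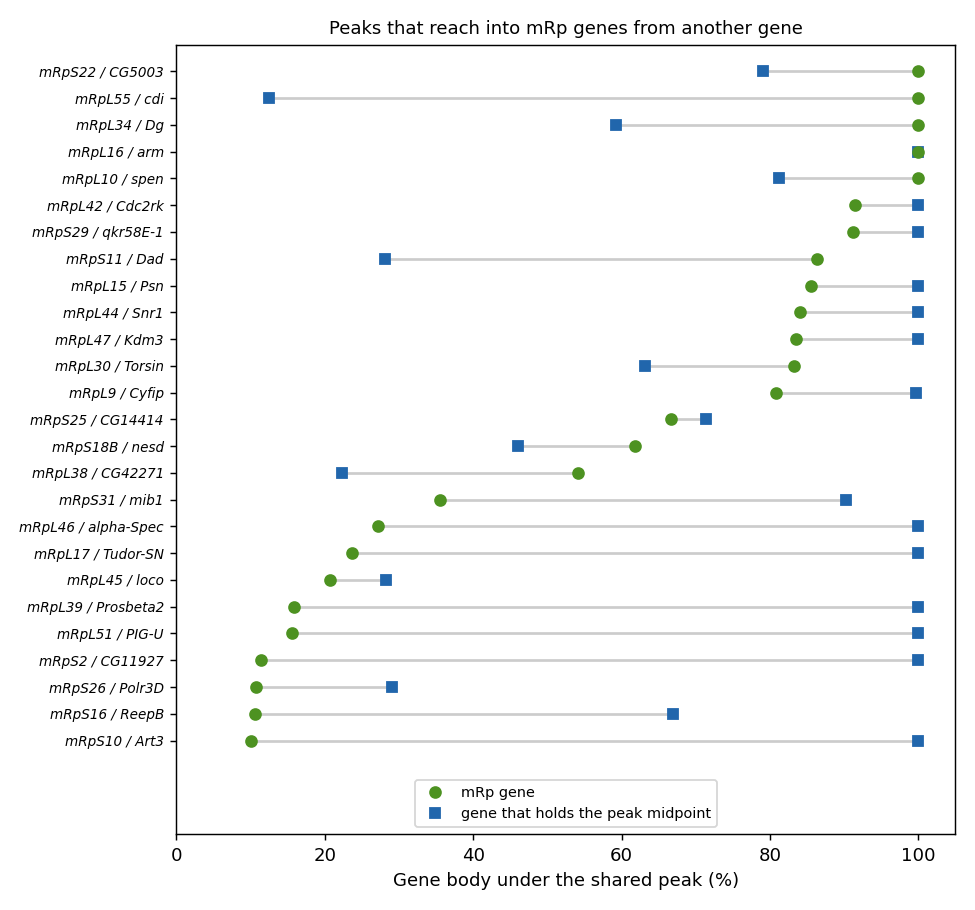
Share of the gene body under the shared peak (x axis, %) for 26 of the 27 mRp genes entered from another gene (green circles) and for the gene holding the peak midpoint (blue squares), 1 pair per row, named mRp gene first. Most neighbours, but not the 8 named above, were covered to a share as large as or larger than the mRp gene. mRpL47 is paired with Kdm3 and not with CG8176, which also holds the midpoint.

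No peak overlapped the other 36 members, but most of these lay close to one. A peak lay within 1 kb of 20 of them (55.6%), against 14.9% of the 8583 protein-coding genes without a peak, and within 5 kb of 33 (91.7%, against 42.1%). The median distance was 766 bp for the members and 7586 bp for all genes without a peak. Restricted to genes under 1500 bp, the share within 1 kb was 52.9% of 34 members and 14.9% of 3802 genes. For all 36 members the midpoint of the nearest peak lay in a protein-coding gene, which overlapped the member in 6 cases.

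The nearest misses were mRpL49 (X, 12907105 to 12907942), 9 bp from a peak of 150 bp centred in Brms1, mRpL32 (3R, 31252872 to 31253686), 65 bp from a peak of 1500 bp in CG1750, and mRpL18 (2R, 12756434 to 12757173), 78 bp from a peak of 2850 bp in the diacylglycerol kinase gene Dgkepsilon. With boundaries on a 50 bp grid, the status of mRpL49 as unmarked rests on the placement of an edge. mRpL27, named after its value was seen, stood 645 bp from a peak centred in RpL27A, which encodes a protein of the cytoplasmic ribosome.

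The longest members without a peak were mRpS9 (3R, 7889277 to 7902667, 13391 bp), whose bacterial relative reaches the tRNA in the peptidyl site, mRpL21 (3L, 19253290 to 19255061, 1772 bp) and mRpL53 (2R, 13954195 to 13955664, 1470 bp). They lay 834, 390 and 545 bp from a peak. mRpS9 overlaps ArgRS-m, the mitochondrial arginyl-tRNA synthetase gene, which was itself entered by a peak over 11.5% of its body. Only 3 members were farther than 5 kb from any peak, and they were named after their values were seen. These were mRpL13 at 18828 bp, mRpL24 at 21240 bp and mRpL11, of the site where translation factors hydrolyse GTP, at 31588 bp.

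**Figure D5:**
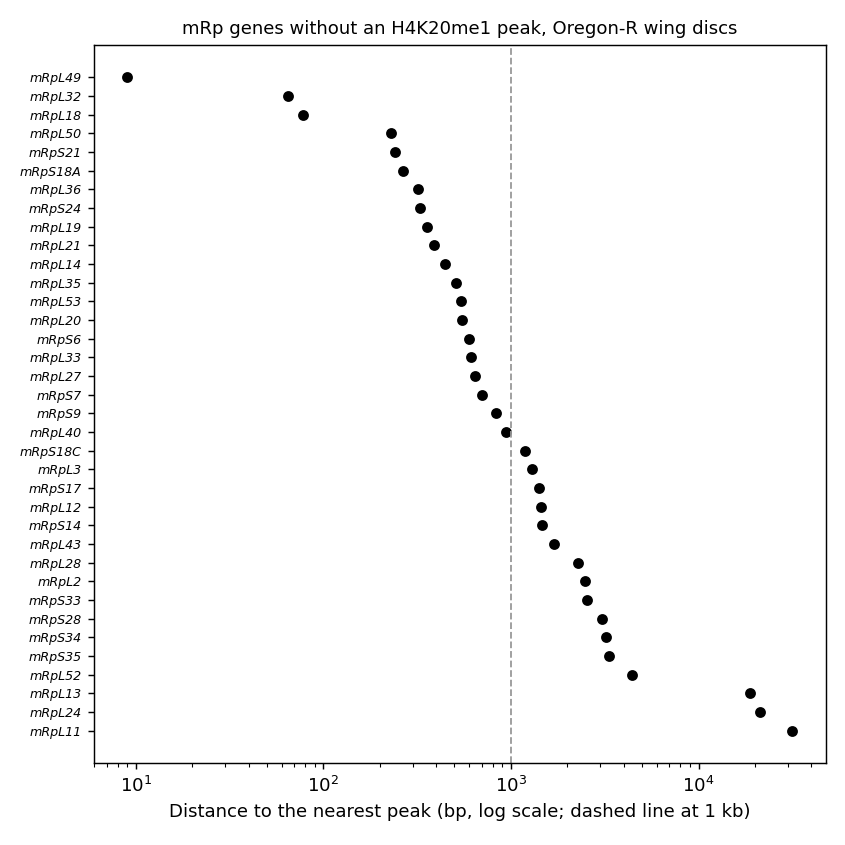
Distance to the nearest peak (x axis, bp, log scale) of the 36 mRp genes without a peak, 1 row per gene. The distance was at most 1 kb (dashed line) for 20 genes and over 5 kb for mRpL13, mRpL24 and mRpL11.

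Sequence around the members was more covered than around genes at large. Of the 5 kb on each side of a member, peaks covered a median of 28.5%, against 6.13% for all protein-coding genes. For the 36 members without a peak this median was 25.0%, and for all protein-coding genes without a peak it was 0%. The number of other protein-coding genes within 5 kb had a median of 4 for members and 4 for all protein-coding genes. Among genes under 1500 bp the flanks were covered to a median of 28.0% for members and 0.150% for all genes.

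Members overlapped other genes more often than genes do in general, in 43 of 73 cases (58.9%, against 41.4%). Of these 43, 24 had a peak (55.8%, against 47.3% of all overlapping genes), centred in 4 (9.30%, against 32.1%) and reaching in in 20 (46.5%, against 15.2%). Of the 30 members that overlap no other protein-coding gene, 13 had a peak (43.3%, against 32.0%), centred in 3 (10%, against 24.9%) and reaching in in 10 (33.3%, against 7.16%). Peaks that reached in were thus more frequent than the background in both sets. Neither set was matched for length. Over all protein-coding genes of 750 to under 1500 bp, 9.22% held a midpoint and 15.3% were only entered. No peak overlapped more than 1 member.

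Similar shares of the mRpL and mRpS genes had a peak, in a split made by symbol that counts mRpS30 with the mRpS genes. A peak overlapped 24 of 47 mRpL genes (51.1%) and 13 of 26 mRpS genes (50%), against 38.3% of all protein-coding genes. Midpoints lay in 5 mRpL and 2 mRpS genes, against 27.9% of all protein-coding genes. The median covered share of those with a peak was 75% for mRpL and 31.8% for mRpS genes, against 46.9% for all protein-coding genes. At least 50% was covered in 14 mRpL and 5 mRpS genes, against 18.3% of all protein-coding genes. These medians rest on 24 and 13 genes, and their difference was not tested. By chromosome arm, a peak overlapped 7 of 12 members on 2L (58.3%, against 33.1% of all protein-coding genes of the arm), 6 of 12 on 2R (50%, against 41.0%), 8 of 17 on 3L (47.1%, against 38%), 10 of 21 on 3R (47.6%, against 37.6%) and 6 of 11 on X (54.5%, against 42.1%). No member on 2R held a midpoint (0 of 12, against 28.3% of all protein-coding genes there), and chromosome 4 holds no member. The members on 2R were short, with a median of 758 bp. Over all arms, a midpoint lay in 2.89% of protein-coding genes under 750 bp and in 9.22% of those of 750 to under 1500 bp. Shares by length were not computed for 2R alone, and a role of length there was not tested.

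The protein-coding genes tko, bonsai and CG4866 have mRp names only as synonyms and do not fall under the rule. They were looked up after the values of the members were known. bonsai was covered over its whole body and CG4866 over 15.8%, each with a midpoint in the gene, and tko had no peak.

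Other genes of mitochondrial gene expression had peaks at shares between 56.2 and 80%, again beside 38.3% of all protein-coding genes, while 27.9% of all protein-coding genes are centred. Of 10 translation factor genes found (mEFG2 was not matched), 6 had a peak, centred in 2 (20%). mEFTu1, the factor that brings charged tRNA to the ribosome, was covered to 91.9% and mRF1, a release factor, to 22.7%, whereas mRRF2 was the longest without a peak. Of 16 genes of mitochondrial aminoacyl-tRNA synthetases and the related Slimp, 9 had a peak, centred in 6 (37.5%). TyrRS-m was covered to 83.1% and AsnRS-m to 68.4%, and MetRS-m was the longest without a peak.

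Of 10 transcription and RNA factor genes found (LRPPRC2 was not matched), 8 had a peak, centred in 5 (50%). SLIRP2 was covered completely and mTerf5 to 80.1%, and mtTFB2, which encodes a factor for transcription of mitochondrial DNA, was the longest without a peak. The mRp genes, with a median length of 909 bp, were shorter than the translation factor genes (1835 bp), the synthetase genes (2639.5 bp) and the transcription and RNA factor genes (1639.5 bp). Among genes with a peak, 18.9% of the mRp genes were centred, against 33.3% of the translation factor genes, 66.7% of the synthetase genes and 62.5% of the transcription and RNA factor genes. Cytoplasmic ribosomal protein genes (symbols starting RpL or RpS, median length 1315 bp) had a peak in 80 of 92 cases (87.0%), beside 50.7% of the mRp genes and 38.3% of all protein-coding genes, and those with a peak were covered to a median of 80.2%. Of the 92, 37 were centred (40.2%, against 27.9% of all protein-coding genes) and 43 only entered, against 10.5% of all genes, so 46.2% of those with a peak were centred. Differences between these lists were not tested.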

How the data were processed

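CUT&RUN peaks of Oregon-R wing discs, H4K20me1 antibody against no primary antibody, were read from the authors' deposited list (chromosome, start, end and width in bp). Per the submitters' processing notes the genome is dm6 and the tools include Bowtie2, SAMtools, deepTools, bedtools and edgeR. The sources used here do not give the peak caller, its threshold or any pooling, and the labels do not say whether libraries came from separate animals beyond the pooled discs. Genes came from the RefSeq table of the same assembly, which holds no strand, exons or sequence. Python 3.11.15 with pandas 2.3.3, NumPy 2.4.6 and Matplotlib 3.10.9 was used. A gene had a peak at an overlap of at least 1 bp, and the peak was centred on it when the body held the peak midpoint, which was checked on simulated data. Every member with a peak was named, except that 1 pair of genes is not reported here. Of those without, the 3 longest and the 3 nearest to a peak were named by rule; mRpL27 and the 3 farthest were chosen after their values were seen. In the other lists the 2 most covered members and the longest without a peak were named. Members and lists were chosen with earlier results of these data known. Planned promoter windows and motifs need start sites and sequence and were not run. Alternatives changed the peaks, the overlap, the centring rule and the arms.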

Additional observations from a re-analysis of the deposited data

How the results depend on the processing

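No paired analysis was possible because the result comes from 1 peak list without values per library, and for the same reason no replicate could be left out. With at least 50% of the body covered, 19 members had a peak, 3 centred and 16 reaching in (against 18.3, 12.7 and 5.60% of all protein-coding genes), at a median covered share of 86.4%. Among the members that overlap no other gene, 13 had a peak, 3 centred and 10 reaching in (against 32.0, 24.9 and 7.16%), and the median covered share was 27.2%, against 46.7%. Fewer genes enter both settings by construction. The median was also below that of all genes without X (35.5%, against 48.2%) and without 3R (42.4%, against 46.2%), and above it in the other settings, and the cause was not tested. Centred members fell to 3 with only peaks of at least the median width (against 18.4%) and numbered 13 when any base of the middle part of the peak counted in place of its midpoint (against 31.7%). Requiring the midpoint in the gene left 2 translation factor genes and 5 transcription and RNA factor genes (against 27.9%). In all, 44 values of these results kept within 1.5 times the reported count, or within the 95% binomial interval of the median. That interval was taken over member genes, which are not replicates, and was wide enough to hold medians of 27.2, 35.5, 42.4 and 80.8%. The 44 values also include overlaps of over 100 bp (31 members, against 37.0%, chosen after the data were seen) and of at least 150 bp (30 members, against 36.4%), bodies widened by 250 bp (42 members, against 41.0%), and each large arm left out. Assigning each peak to the gene with the most bases under it gave 8 members in place of 7 (against 27.5%). Only 5 members were in both sets, since mRpL23 and mRpL48 dropped out and mRpL41, mRpL54 and mRpS23 came in. Unknown depth limits any reading of genes without a peak.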
